A study of Mus musculus with 16 samples.

Results

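Hepatic stellate cells and the extracellular matrix of the liver were followed through 36 genes, in bulk RNA-seq of mouse liver. Mice ate either a high-fat diet (HFD), with 60% of its energy from fat, or a control diet (CD). The 36 genes were chosen by name, with earlier results of these data known. They cover 5 fibrillar collagens, 3 basement membrane collagens, 4 beaded filament and fibril-associated collagens, 7 matrix glycoproteins and proteoglycans, 3 crosslinking enzymes, 5 proteases and inhibitors, 4 ligands and receptors and 5 genes of stellate cells. All 36 were found among the 46078 genes of the count table, and 35 of them passed the filter on low counts that left 15075 genes for testing. Lox, with 3 to 43 counts per library, did not pass it and is given by its counts only.

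Mice in all groups were male, of the C57BL6/J strain (written C56B6/J in the labels), went on their diet at 8 weeks of age and stayed on it for 16 weeks. CD fed and HFD fed mice had food ad libitum, and CD fast and HFD fast mice had been without food for 16 h. The labels name no transgene or drug, and each group had n = 4 libraries. The labels number the livers without stating that each number is a separate mouse, so the p-values measure the spread between these samples. Library totals ran from 41364448 to 57583153 counts. CD fed libraries were the deepest, at 55415835 to 57583153 counts, and no other library passed 53982285. Levels are CPM, counts scaled to library size after TMM (trimmed mean of M-values) normalization, and differences are log2 fold changes with their SE from edgeR's quasi-likelihood test, adjusted by Benjamini-Hochberg over the 15075 genes and called under 0.05. TMM factors were 0.9287 to 0.9836 in CD libraries and 1 to 1.132 in HFD libraries.

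Hepatic stellate cells lie between the sinusoidal endothelium and the hepatocytes, where they store retinyl esters. When activated they lose that store and secrete fibrillar collagens, and TGF-beta and PDGF are known signals for this change. Matrix is laid down by collagen synthesis and crosslinking and removed by metalloproteinases, whose activity TIMP proteins inhibit. In whole liver, fewer cells of a type and less RNA per cell cannot be told apart.

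Promoters were read for the members that the results below turn on, from RefSeq windows of 300 bases (250 before and 50 after the annotated start, GRCm38.p6). The table held 26 windows for 23 of the 36 members. Those of Col1a2 and Col3a1, fibrillar collagens that stood far above their groups in 2 HFD livers, of Timp1, which had the widest range of all members, and of Mmp14 and Reln, which moved in opposite directions with the fast in CD mice, are printed 5′ to 3′ on the strand of the gene. Capitals mark matches, on either strand, to the motif TATAAA of the TATA box, to CCAAT, to the TEAD core GGAATG, to the CArG box, and to GGGCGG of the GC box.
Col1a2, chr6:4505368-4505667, plus strand: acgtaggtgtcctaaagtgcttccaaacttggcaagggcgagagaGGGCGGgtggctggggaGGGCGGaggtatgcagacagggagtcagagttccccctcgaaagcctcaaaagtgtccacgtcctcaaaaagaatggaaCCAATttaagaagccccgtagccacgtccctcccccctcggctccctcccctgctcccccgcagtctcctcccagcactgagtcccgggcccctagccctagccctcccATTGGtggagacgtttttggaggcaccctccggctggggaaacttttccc
Col3a1, chr1:45311288-45311587, plus strand: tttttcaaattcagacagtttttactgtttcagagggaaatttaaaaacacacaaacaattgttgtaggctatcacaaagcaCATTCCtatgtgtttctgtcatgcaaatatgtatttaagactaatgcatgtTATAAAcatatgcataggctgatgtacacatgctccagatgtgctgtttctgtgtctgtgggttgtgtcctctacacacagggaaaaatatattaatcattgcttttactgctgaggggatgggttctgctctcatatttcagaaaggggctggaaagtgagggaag
Timp1, chrX:20869916-20870215, plus strand: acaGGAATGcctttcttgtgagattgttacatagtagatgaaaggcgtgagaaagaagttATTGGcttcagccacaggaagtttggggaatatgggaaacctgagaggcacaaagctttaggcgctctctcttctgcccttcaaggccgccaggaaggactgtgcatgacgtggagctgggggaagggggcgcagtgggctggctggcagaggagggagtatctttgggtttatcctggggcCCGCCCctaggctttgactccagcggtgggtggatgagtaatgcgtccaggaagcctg
Mmp14, chr14:54431348-54431647, plus strand: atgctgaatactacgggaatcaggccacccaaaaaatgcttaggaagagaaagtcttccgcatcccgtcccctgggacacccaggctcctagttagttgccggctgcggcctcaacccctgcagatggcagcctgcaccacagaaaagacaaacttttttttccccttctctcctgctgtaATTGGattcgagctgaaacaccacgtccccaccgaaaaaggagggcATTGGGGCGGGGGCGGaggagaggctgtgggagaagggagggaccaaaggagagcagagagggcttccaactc
Reln, chr5:22344656-22344955, minus strand: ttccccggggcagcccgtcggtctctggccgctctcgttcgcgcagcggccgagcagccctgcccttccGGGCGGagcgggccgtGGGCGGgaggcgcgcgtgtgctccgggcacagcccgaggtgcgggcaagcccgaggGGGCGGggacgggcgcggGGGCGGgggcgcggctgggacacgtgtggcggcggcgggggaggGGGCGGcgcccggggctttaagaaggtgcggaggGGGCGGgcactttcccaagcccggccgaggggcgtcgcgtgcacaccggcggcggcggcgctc
GGGCGG stood in 18 of the 26 member windows (69.2%), against 35.7% of all 32851 promoters in the table. Member windows were also richer in G and C, with a median of 60.8% against 52.7%. Reln carried GGGCGG 6 times, on the gene's own strand, and Col3a1 did not carry it. CCAAT stood in 11 member windows (42.3%, against 37.4% of all), GGAATG in 6 (23.1%, against 14.7%) and TATAAA in 2 (7.69%, against 13.6%), those of Col3a1 and Vim. The CArG box was in 0 of the 26 and in 1.63% of all promoters. In Mmp14 a CCAAT match on the opposite strand, 23 bases before the start, overlapped the GGGCGG 19 bases before it. Matches are letters in these windows and were not tested as binding sites.

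Per kilobase of merged exon, the members spanned from 145 CPM per kb for Col18a1 down to 0.0487 for Lox, as means over 16 libraries. Col18a1, the basement membrane collagen that releases endostatin, and Fn1, fibronectin, which hepatocytes also secrete, led at 145 and 142 CPM per kb. Their order is not settled, because both means lie closer together than the 1.53-fold and 1.33-fold ranges that the genes show between libraries. Next came the small proteoglycans Dcn at 20.6 and Bgn at 15.1 CPM per kb and Sparc, a collagen-binding glycoprotein, at 11.02. Col1a1, the main chain of type I collagen, was at 0.914 CPM per kb, next to its partner chain Col1a2 at 0.888. Timp1 at 0.260 and Lox at 0.0487 closed the order. Defining hepatocyte markers were present throughout, with a summed level of 89030 to 152100 CPM over 15 genes, and the stellate cell genes Lrat, Reln and Des were detected in every library.

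Before any comparison, HFD fed library 4 and HFD fast library 4 stand apart in these genes. Each was the highest of its group in 31 of the 35 tested members and in 11 of the 12 collagens. Col1a1 was at 2.18, 2.47 and 3.45 CPM in HFD fed libraries 1 to 3 and at 21.1 CPM in library 4. In HFD fast libraries 1 to 3 it was at 1.63, 8.43 and 6.46 CPM, and at 24.4 CPM in library 4. Library 4 was therefore 8.51 times the median of the other 3 livers in HFD fed mice and 3.78 times in HFD fast mice. A ratio of at least 2 was seen for 14 of 35 members (40%) in each of the libraries, while 5.96% of all tested genes reached it in HFD fed library 4 and 5.20% in HFD fast library 4. Across the tested genes, the deviations of these 2 libraries from their group means correlated at r = 0.662, against 0.058 to 0.125 for the other same-numbered pairs of HFD fed and HFD fast libraries. CD fed library 1, with another number, came next, at 0.386 with HFD fed library 4 and 0.364 with HFD fast library 4. Genes are not independent replicates, and the labels do not say whether libraries with the same number share a batch or litter. The lists of members at a ratio of at least 2 share 13 members, 92.9% of each, with Lum on the first and Loxl2 on the second as the others. HFD fast library 1 was the lowest of its group in 26 of 35 members, including 11 of the 12 collagens. CD libraries differed less, but also together: CD fed library 1 was the highest of its group in 24 of 35 members and CD fed library 3 the lowest in 28, including all 12 collagens.

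**Figure D1:**
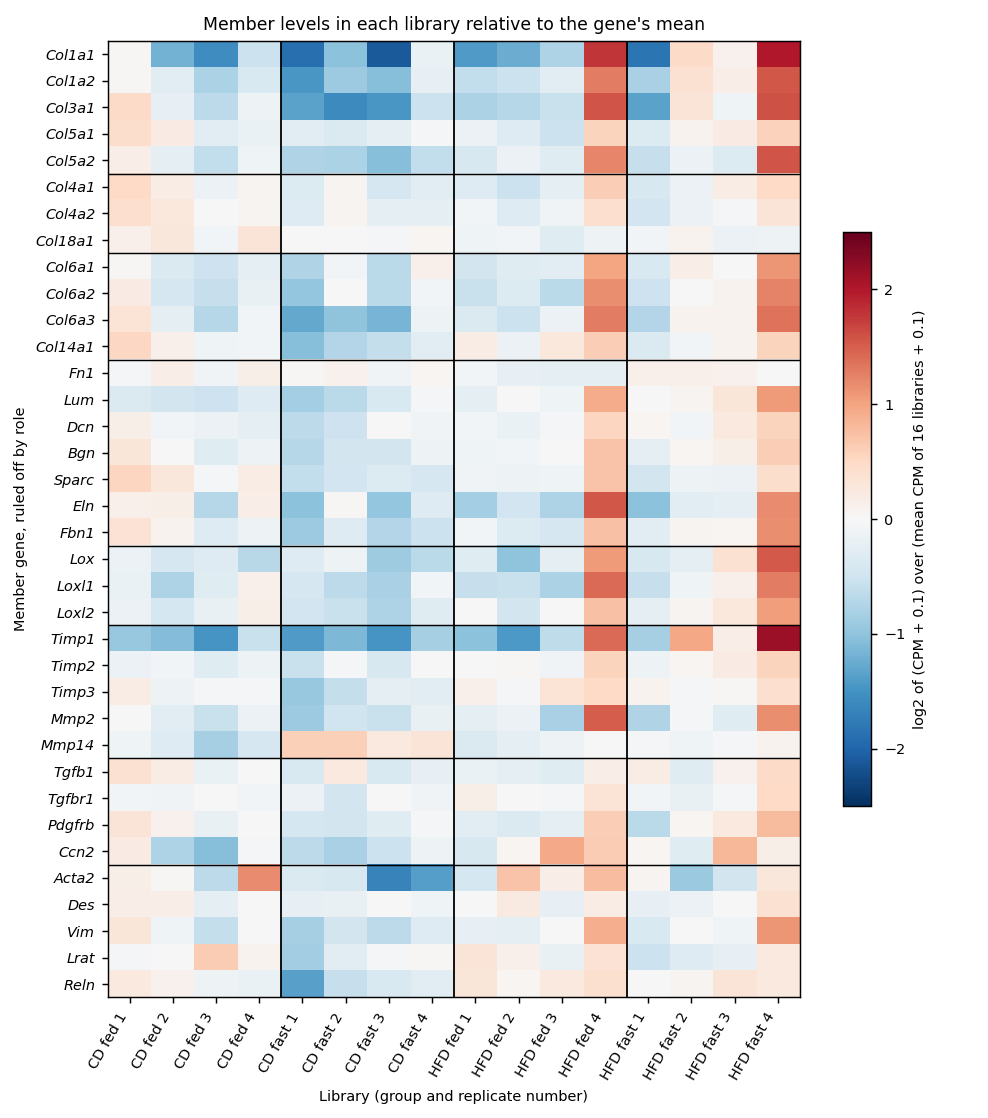
Heat map of the 36 members (rows, ruled off by role) in the 16 libraries (columns, grouped by diet and feeding state), coloured by log2 of CPM relative to the gene's mean over all libraries, with 0.1 CPM added to both. HFD fed 4 and HFD fast 4 are red in most rows, and rows such as Fn1, Col18a1 and Mmp14 are not.

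The excess was large in fibrillar collagens. Col3a1, the type III collagen chain, was at 13.6, 14.5 and 16.1 CPM in HFD fed libraries 1 to 3 and at 70.4 CPM in library 4. Among HFD fast libraries it was at 9.35, 29.7 and 21.98 CPM and then at 71.6 CPM. The median ratio over the 5 fibrillar collagens was 3.59 in HFD fed library 4 and 3.25 in HFD fast library 4, with Col5a1, a chain of the fibril-nucleating type V collagen, the lowest of them at 1.85 and 1.41. Eln, elastin, stood at 5.31 and 2.82 times the median of its group's other livers. Loxl1, a crosslinking enzyme of elastic fibres, stood at 4.33 and 2.75 times. Mmp2, a gelatinase, gave 3.52 and 2.85, and Timp1, the inducible inhibitor of metalloproteinases, 12.4 and 4.97. Other members did not share this: ratios under 1.2 in both libraries were found for Col18a1 (0.993 and 0.959), Fn1 (0.974 and 0.931), Mmp14 (1.17 and 1.09) and Reln (1.12 and 1.12).

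**Figure D2:**
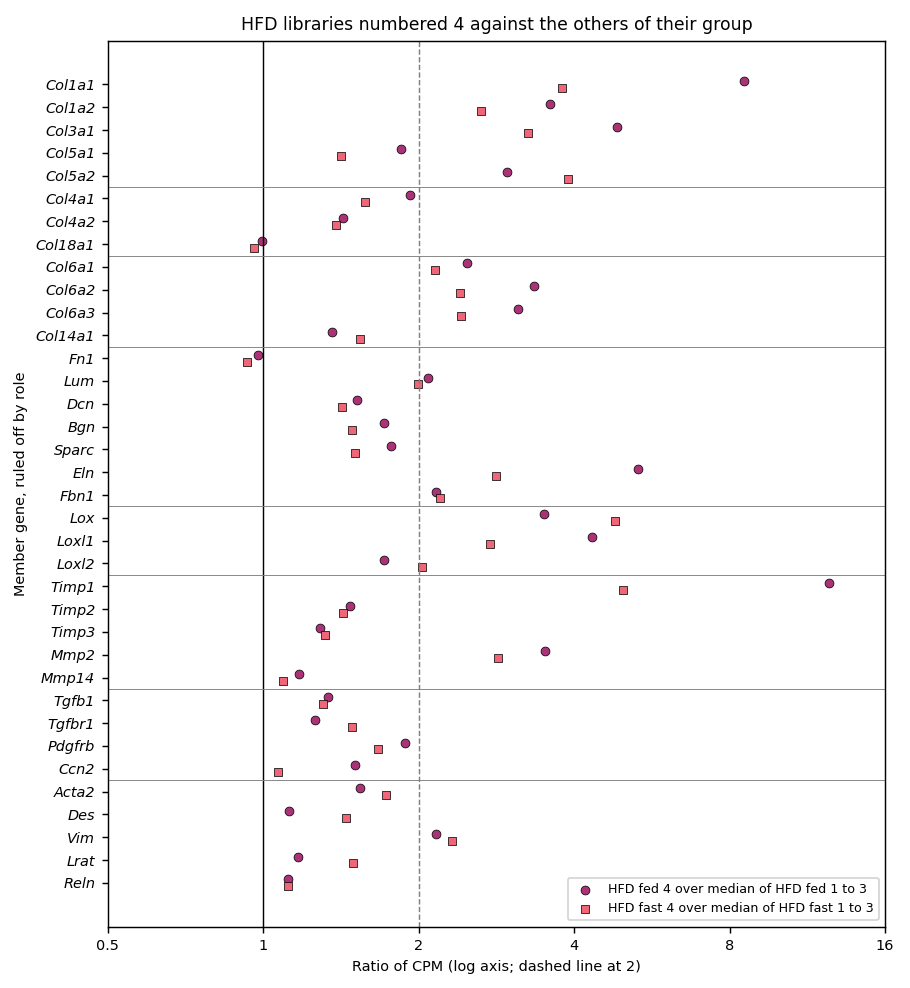
Ratio of CPM (log axis) in HFD fed library 4 (circles) and HFD fast library 4 (squares) to the median of the other 3 libraries of the same group, for each of the 36 members, with a dashed line at 2. Timp1, Col1a1, Eln and Col3a1 lie far to the right, and Col18a1 and Fn1 lie close to 1.

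Spread between livers differed by group as well. For fibrillar collagens the median coefficient of variation was 23.5% (fed) and 37.3% (fasted) with CD and 75.6% (fed) and 81.3% (fasted) with HFD, against 12% to 14.7% for all tested genes. Stellate cell genes varied less with HFD, at 16.3% (fed) and 24.1% (fasted). Genes outside the members were high in the same libraries. Mmp12, macrophage elastase, was 63.5 and 8.57 times the median of its group's other livers, and Mmp13, a collagenase, 14.4 and 8.67 times. Gpnmb and Trem2, markers of lipid-associated macrophages, stood at 69.4 and 18.5 times and at 10.4 and 3.54 times. These were named after their values were seen. Over whole marker lists the median ratios in HFD fed library 4 and HFD fast library 4 were 2.80 and 3.45 for 7 cell cycle genes, 1.65 and 0.957 for 15 Kupffer cell and macrophage markers, 4.63 and 1.14 for 7 tested cholangiocyte markers, 0.987 and 0.973 for 15 sinusoidal endothelial markers and 1.05 and 0.959 for 15 hepatocyte markers. The 21 stellate cell markers outside the members gave 1.34 and 1.21. Their summed level was 833.6 CPM in HFD fed library 4, next to 832.9 CPM in library 3, and 922.3 CPM in HFD fast library 4, next to 921.5 CPM in library 3. Tmem56 alone took 250.8 to 439 CPM of the sum in HFD livers, and the other 20 genes summed to 538.6 CPM in HFD fed library 4 (427.5 to 473.2 CPM in libraries 1 to 3) and to 542.6 CPM in HFD fast library 4 (413.2 to 501.7 CPM). Portal fibroblast and mesothelial markers, which mark other matrix-producing cells, gave 1.41 and 1.29 over 10 tested genes. Their summed level over 13 genes was 22.8 CPM in HFD fed library 4, against 8.21 to 8.64 CPM in libraries 1 to 3, and 13.3 CPM in HFD fast library 4, against 7.20 to 8.95 CPM. In HFD fed library 4, 10.4 CPM of this sum came from Krt19, a keratin gene that is also on the cholangiocyte list. The other 12 genes summed to 12.3 CPM there, against 7.81 to 8.17 CPM, and to 12.7 CPM in HFD fast library 4, against 6.59 to 8.38 CPM. The part of these cell types in the members' levels was not tested. Results below use all 16 libraries, and for the main differences between the diets the values without these 2 follow, a choice made after seeing the data.

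The first comparison asks what a 16 h fast did to the members in CD livers. Of 35 tested members, 34 had a negative log2 fold change and 1 a positive one, and the median was -0.39, against -0.01 over all genes tested. Of these, 5 fell (Col14a1, Sparc, Timp3, Acta2 and Reln) and 1 rose (Mmp14). Calls were thus 6 of 35, in a comparison that called 25.2% of all genes (13.7% higher and 11.5% lower), and the groups did not overlap for 6 members, where 25.4% of all genes did not. A share of members near that of all genes is no result about the list, and the direction of the uncalled members is given as a description.

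Mmp14 (chr14:54431612-54445364, plus strand, GRCm38), the membrane-bound metalloproteinase that activates pro-MMP2, was the only member that rose. CD fed livers had 32.7, 27.9, 19.6 and 26.3 CPM and CD fast livers 53.3, 53.0, 41.3 and 44.0 CPM. Every fasted liver was above every fed one, and the level was 1.80-fold higher (log2 0.85, SE 0.13, adjusted p = 0.000364 by edgeR). The call held when any 1 of the 16 libraries was left out, with an adjusted p of at most 0.001625. In HFD livers the fast left it at 27.1, 30.1, 32.1 and 35.2 CPM fed and at 34.6, 32.6, 34.2 and 37.3 CPM fasted, ranges that overlap (log2 0.16, SE 0.13, adjusted p = 0.482). The difference between the diets in this effect was -0.69 on the log2 scale (SE 0.19, unadjusted p = 0.001916, adjusted p = 0.0578), just outside the threshold, and it passed under DESeq2 (adjusted p = 0.01216).

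Sparc (chr11:55394500-55423183, minus strand), which binds collagen, fell from 60.3, 51.0, 40.3 and 47.7 CPM in CD fed livers to 27.1, 29.9, 33.0 and 31.0 CPM in CD fast livers. The groups did not overlap (log2 -0.72, SE 0.20, adjusted p = 0.0175). Col14a1 (chr15:55307750-55520803, plus strand), a collagen that attaches to fibril surfaces, went from 73.8, 56.5, 47.8 and 49.0 CPM to 24.8, 31.0, 34.0 and 43.0 CPM, again with no overlap (log2 -0.77, SE 0.21, adjusted p = 0.0160). Timp3 (chr10:86300372-86349506, plus strand), the TIMP that binds to matrix, was at 34.3, 27.6, 29.5 and 29.0 CPM fed and at 15.5, 19.9, 25.6 and 24.5 CPM fasted, the ranges standing clear of each other (log2 -0.49, SE 0.15, adjusted p = 0.0275). Timp3 exons overlap those of Syn3 on the opposite strand over 1733 bases, and the strand setting of the counting is not given in the sources used here. The same limit applies to all 12 members with such an overlap, among them Fbn1 (2442 bases), Ccn2 (665) and Reln (246).

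Among the genes of stellate cells, Reln (chr5:21884454-22344702, minus strand), a secreted glycoprotein that marks them in liver, was at 78.0, 70.3, 60.3 and 58.6 CPM in CD fed livers. It fell to 25.6, 44.2, 50.6 and 55.0 CPM in CD fast livers, all below the lowest fed liver (log2 -0.61, SE 0.18, adjusted p = 0.0204). Its call was lost in a fit on only the 2 groups compared (adjusted p = 0.0627). Acta2, the smooth muscle actin of activated stellate cells and of vessel walls, was low and scattered, at 1.93, 1.78, 1.07 and 4.04 CPM fed and 1.32, 1.28, 0.472 and 0.609 CPM fasted. The ranges overlap, and its call (log2 -1.27, SE 0.44, adjusted p = 0.0454) was lost in 10 of 16 leave-one-out fits, in limma-voom (adjusted p = 0.0644) and with the replicate block (adjusted p = 0.0506). Lrat, which esterifies retinol for storage, was at 12.3, 12.7, 19.9 and 13.6 CPM fed and 6.93, 10.6, 12.3 and 13.0 CPM fasted (log2 -0.44, SE 0.21, adjusted p = 0.137). Des and Vim, intermediate filament genes of stellate cells, gave log2 -0.16 (SE 0.14) and -0.49 (SE 0.32) and were not called.

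None of the 5 fibrillar collagens was called with the fast in CD livers, and all 5 values were negative. Col3a1 came first in size, from 33.2, 20.7, 14.97 and 21.8 CPM to 9.34, 7.83, 8.58 and 16.3 CPM (log2 -1.11, SE 0.59, adjusted p = 0.184). Col1a1 was at 6.14, 2.58, 1.97 and 4.11 CPM and then at 1.56, 2.92, 1.32 and 5.31 CPM, with wide overlap (log2 -0.42, SE 0.81, adjusted p = 0.747). The model shares 1 estimate of spread over all 4 groups, and without HFD fed library 4 and HFD fast library 4 the SE of Col3a1 fell to 0.32 and its adjusted p to 0.0221 at the same log2 value. In that fit 12 of 34 tested members were called, 11 lower and 1 higher, where 27.3% of all genes were called. It kept the 6 calls of the full fit and added Col3a1, Col5a2, Col4a2, Bgn, Fbn1 and Vim, all lower. The basement membrane pair Col4a1 and Col4a2 moved by -0.40 (SE 0.24) and -0.38 (SE 0.17) in the full fit, uncalled. Without CD fed library 1, the highest of its group in most members, the CD call count fell from 6 to 1, and Mmp14 was the one kept. The share of all genes called in that fit is not given, so its count is no result about the members.

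Markers of other cells were also read for the fast in CD livers, which called 25.2% of all genes (13.7% higher and 11.5% lower). Of 15 sinusoidal endothelial markers, 10 fell and 0 rose, among them Gpr182 (log2 -0.78), Cdh5 (-0.68), Tie1 (-0.68) and Oit3 (-0.59), and their summed level was 611 to 678 CPM fed and 417 to 526 CPM fasted. Kupffer cell and macrophage markers gave 5 lower and 0 higher of 15, led by Adgre1 (log2 -1.11), with sums of 383 to 718 CPM and 260 to 422 CPM. All 7 cell cycle genes were lower, from a sum of 10.0 to 17.9 CPM to one of 2.99 to 4.11 CPM. Of 21 stellate cell markers outside the members, 7 fell, including Nes (log2 -1.14), Ngfr (-1.02) and Steap4 (-0.87), and 1 rose, Tmem56 (0.83), and the sums of these 21 genes overlapped, at 652.9 to 780.3 CPM fed and 636.2 to 827.3 CPM fasted. Without Tmem56 the sums were 433.2 to 500.3 CPM fed and 245.4 to 389.9 CPM fasted and did not overlap. Vascular smooth muscle markers gave 2 lower and 1 higher of 6 tested, and their sums of 19.9 to 30.2 and 20.7 to 27.7 CPM overlapped. The marker with the highest level of each list was Ptprb for sinusoidal endothelium, which fell from 93.3 ± 3.54 to 63.9 ± 6.85 CPM (SD, n = 4), Clec4f for Kupffer cells, which fell from 106.7 ± 11.2 to 73.3 ± 13.6 CPM, and Tmem56 for stellate cells. Of 15 hepatocyte markers 2 rose and 1 fell. Alb had the highest level of them, at 91940 ± 12190 CPM fed and 71980 ± 11520 CPM fasted, uncalled (log2 -0.35, SE 0.19). No gene of these lists was at 0 in all libraries, and Myocd, of the smooth muscle list, had at most 3 counts in any. Of 10 tested portal fibroblast and mesothelial markers 0 were called, and their sums of 8.29 to 11.4 and 6.10 to 8.14 CPM did not overlap (exact permutation p = 0.0286, the smallest the design allows, and 0.123 adjusted over 56 checks). Any list whose sums did not overlap, such as the sinusoidal endothelial and cell cycle lists, gives this same p, so it adds nothing to the ranges. The part of these markers in the members' decrease was not tested.

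**Figure D3:**
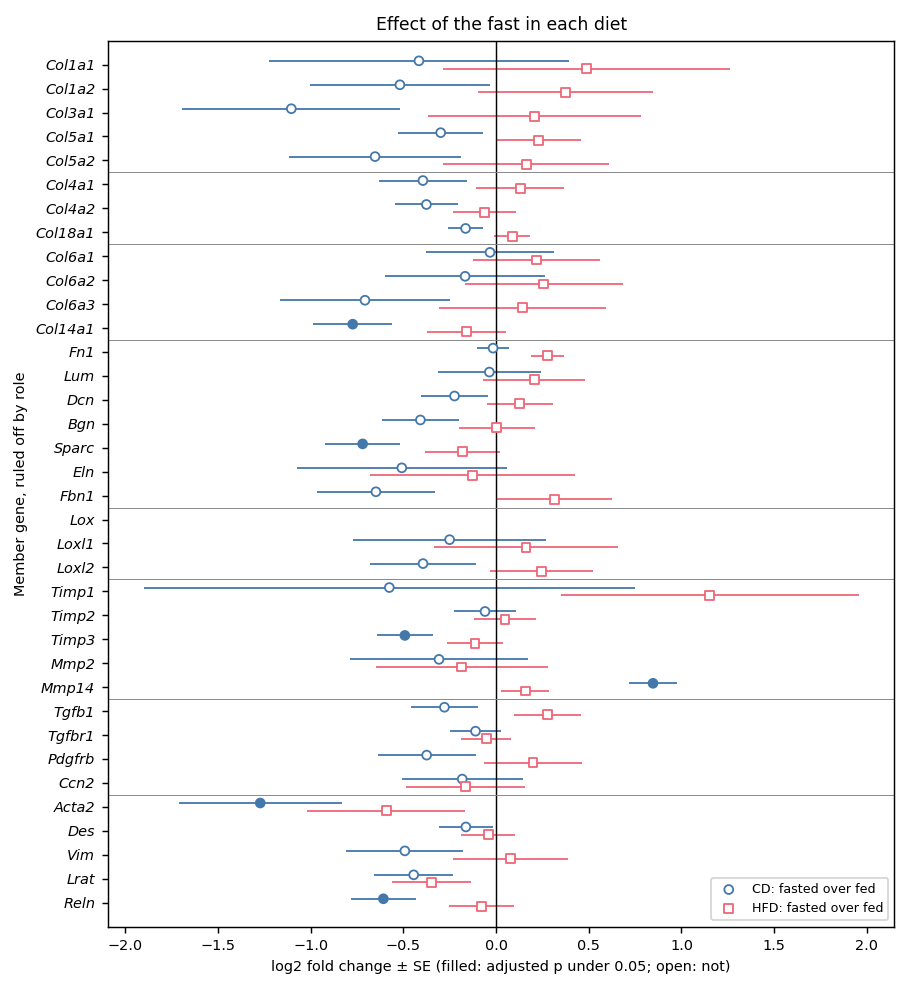
Log2 fold change of fasted over fed livers with its SE for each member, in CD mice (circles) and in HFD mice (squares), with filled symbols for an adjusted p under 0.05 and no symbol for Lox, which was not tested. In CD mice 34 of 35 points lie left of 0 and Mmp14 lies right of it, and in HFD mice the points lie on both sides of 0 and none is filled.

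In HFD livers the same fast called 0 of 35 members, where 8.86% of all genes were called, and 1 member had an unadjusted p under 0.05. That member was Fn1, at 1584, 1440, 1399 and 1403 CPM fed and 1798, 1809, 1780 and 1675 CPM fasted, groups that do not overlap (log2 0.28, SE 0.09, adjusted p = 0.0626 by edgeR). It was called by DESeq2 (adjusted p = 0.004089), limma-voom (0.0469) and after 3 other scalings or filters, and it was the only member called by either tool. The median over members was 0.13, and 23 were positive. Without both HFD libraries numbered 4 the count was 0 of 34 as well, where 6.81% of all genes were called. Reln stood at 80.7, 67.5, 77.2 and 86.3 CPM fed and 66.4, 69.2, 82.2 and 77.2 CPM fasted, and Sparc at 39.2, 38.4, 38.7 and 68.5 CPM fed and 30.4, 38.3, 37.7 and 56.7 CPM fasted, with overlap in both.

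Whether the fast acted differently in the 2 diets was tested by the interaction. No member passed (2.59% of all genes did), 5 had an unadjusted p under 0.05, and DESeq2 called Mmp14 alone. The interaction was positive for 34 of 35 members with a median of 0.42, against -0.0015 for all genes, and negative for Mmp14. Without both HFD libraries numbered 4 no member passed either (1.50% of all genes did). Besides Mmp14 the lowest p-values were those of Fn1 (log2 0.29, SE 0.13), Fbn1, the microfibril gene fibrillin-1 (0.97, SE 0.44), Tgfb1, the TGF-beta ligand (0.56, SE 0.26), and Reln (0.53, SE 0.25), with adjusted p from 0.202 to 0.247. The fasting effects in CD and HFD livers were therefore not shown to differ for any single member by edgeR. Of the sinusoidal endothelial markers, 4 of 15 were called in the same test, all positive. Averaged over the diets, the fast called 6 members, where 28.8% of all genes were called (15.2% higher and 13.6% lower), namely Mmp14 higher (log2 0.50, SE 0.09) and Acta2 (-0.93, SE 0.31), Col14a1 (-0.47, SE 0.15), Sparc (-0.45, SE 0.14), Reln (-0.34, SE 0.12) and Timp3 (-0.30, SE 0.11) lower. Without both HFD libraries numbered 4, where 28.5% of all genes were called, Reln was no longer called (adjusted p = 0.0934), Lrat was (log2 -0.45, adjusted p = 0.0375), and the other 5 kept their calls. Over the 16 leave-one-out fits of this average Mmp14 was called in all, while Timp3 was not called in 12, Reln in 11, Acta2 in 7, Col14a1 in 6 and Sparc in 4. The adjusted p was highest without CD fed library 1 for Timp3 (0.0887), Reln (0.0967), Col14a1 (0.0646) and Sparc (0.0582), and without CD fed library 4 for Acta2 (0.0799).

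The next comparison asks how HFD livers differed from CD livers when both were fed. No member was called (7.50% of all genes were), 4 had an unadjusted p under 0.05, and DESeq2 called 2, Col18a1 and Fn1, both lower. The share of all genes called by DESeq2 is not given here, so its count is no result about the list. Col18a1 was at 1113, 1239, 969 and 1267 CPM in CD fed livers and 941, 975, 827 and 934 CPM in HFD fed livers, of which the highest just passed the lowest CD liver (log2 -0.32, SE 0.10, adjusted p = 0.0551). Fn1 gave -0.23 (SE 0.09, adjusted p = 0.125). Lum, lumican, a proteoglycan of collagen fibrils, was at 4.21, 3.95, 3.78 and 4.34 CPM in CD fed and at 4.55, 5.41, 5.03 and 10.5 CPM in HFD fed livers, the only member whose groups did not overlap (15.7% of all genes did not; log2 0.65, SE 0.28, adjusted p = 0.173). Ccn2, connective tissue growth factor, gave 0.74 (SE 0.32, adjusted p = 0.185).

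For the fibrillar collagens in fed mice the sign of the diet difference changed with the libraries in the fit. With all libraries the log2 values were positive for 4 of 5, up to 0.98 (SE 0.79) for Col1a1, and the member median was 0.22 with 26 of 35 positive. Without HFD fed library 4 and HFD fast library 4 the median was -0.13, with 8 of 34 positive and 26 negative. Col1a1 then stood at -0.46 (SE 0.56), Col3a1 at -0.62 (SE 0.35), Eln at -0.70 (SE 0.31), Col4a1 at -0.54 (SE 0.17, adjusted p = 0.0672) and Lum, still positive, at 0.30 (SE 0.17). That fit called 0 members, where 7.27% of all genes were called.

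The HFD and CD livers of fasted mice were compared next. The log2 fold change was positive for 33 of 35 with a median of 0.69, against 0.01 over all genes, 19 members had an unadjusted p under 0.05, and 5 were called, where 7.70% of all genes were (3.05% higher and 4.65% lower). The called members were Timp1, Timp3, Col14a1 and Reln, all higher, and Mmp14, lower. Groups did not overlap for 7 members (14.0% of all genes), which were Col5a2, Lum, Fbn1, Loxl2, Timp3, Mmp14 and Reln.

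**Figure D4:**
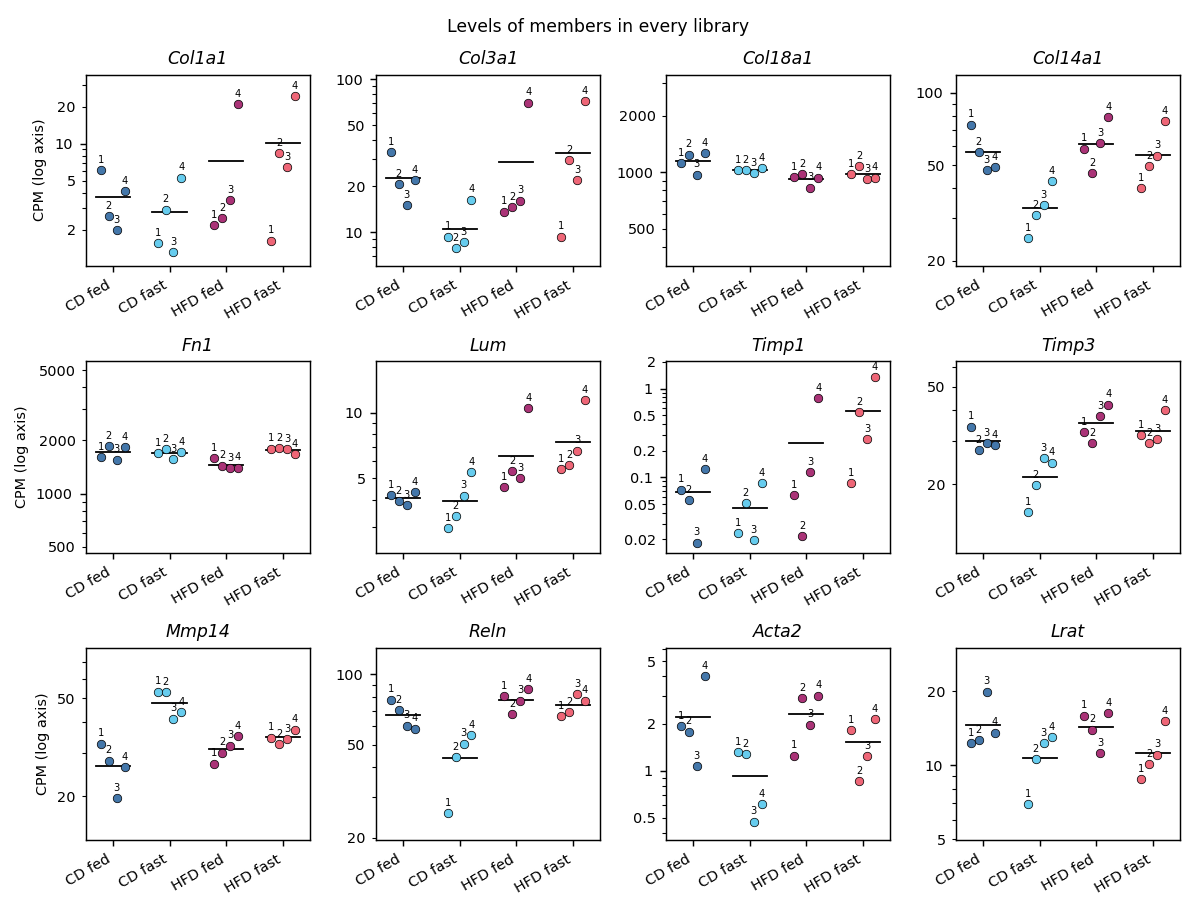
CPM (log axes) of 12 members in every library, numbered by replicate, with the group mean as a bar. Mmp14 is highest in the CD fast livers and Reln, Timp3 and Col14a1 are lowest there, while in Col1a1, Col3a1 and Timp1 the HFD livers numbered 4 lie far above their groups.

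Reln was at 25.6 to 55.0 CPM in CD fast livers and at 66.4 to 82.2 CPM in HFD fast livers (log2 0.75, SE 0.18, adjusted p = 0.0203). Timp3 was at 15.5 to 25.6 CPM and at 31.7, 29.4, 30.5 and 40.0 CPM (log2 0.62, SE 0.15, adjusted p = 0.0238). Both kept their direction but not their call without the HFD libraries numbered 4, at 0.73 (SE 0.20, adjusted p = 0.0520) and 0.51 (SE 0.15, adjusted p = 0.0625). Mmp14 was lower in HFD fast livers, at 32.6 to 37.3 CPM against 41.3 to 53.3 CPM (log2 -0.47, SE 0.13, adjusted p = 0.0413), and it stood at -0.50 (SE 0.14, adjusted p = 0.0623) without those libraries. Col14a1 was at 40.0, 49.4, 54.8 and 76.0 CPM in HFD fast livers, of which the lowest lay under the highest CD fast liver (log2 0.73, SE 0.21, adjusted p = 0.0489). Without the libraries numbered 4 it stood at 0.54 (SE 0.19, adjusted p = 0.117), and its call was lost in 11 of 16 leave-one-out fits and in limma-voom (adjusted p = 0.0532). The call of Mmp14 was lost in 11 of those fits as well, that of Timp3 in 3 and that of Reln in 2.

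Timp1 rested on few counts. CD fast libraries held 1 to 4 counts (8 in all) and HFD fast libraries 4 to 67 (108 in all), a ratio of 12.8 after scaling, with an exact 95% interval of 6.29 to 30.5 that covers counting error only. In fed mice the counts were 15 and 49 in all, a ratio of 3.82 (2.11 to 7.34), of which HFD fed library 4 gave 40. Without the libraries numbered 4 the ratio was 6.62 (3.06 to 16.4) in fasted mice and 0.962 (0.371 to 2.35) in fed mice. The edgeR test called Timp1 in fasted mice (adjusted p = 0.0482), limma-voom did not (adjusted p = 0.0937), and its fitted fold change depends on the prior count. Its call was lost in 13 of 16 leave-one-out fits, and leaving out HFD fast library 4 gave the highest adjusted p (0.168). Lox gave 24 and 74 counts in fasted mice, a ratio of 2.93 (1.83 to 4.86), with 43 of the counts in HFD fast library 4, and 34 and 49 counts in fed mice, a ratio of 1.69 (1.07 to 2.69), with 30 of them in HFD fed library 4. Without the libraries numbered 4 these ratios were 1.67 (0.948 to 2.97) and 0.896 (0.483 to 1.62), whose intervals include 1.

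Of the uncalled differences in fasted mice, those of 4 fibrillar collagens were the largest. Col1a1 gave log2 1.89 (SE 0.81, adjusted p = 0.157), Col3a1 1.65 (SE 0.59, adjusted p = 0.0956), Col1a2 1.42 (SE 0.49, adjusted p = 0.0836) and Col5a2 1.26 (SE 0.46, adjusted p = 0.102). Without the libraries numbered 4 these were 0.99 (SE 0.54), 0.95 (SE 0.35), 0.84 (SE 0.30) and 0.48 (SE 0.19), still positive and uncalled. DESeq2 called Col5a2 (adjusted p = 0.0393), and Col1a2 was called under total count scaling (0.0454) and with the replicate block (0.0345). HFD fast libraries 2 and 3 held 29.7 and 21.98 CPM of Col3a1, above the highest CD fast liver at 16.3 CPM, while HFD fast library 1 at 9.35 CPM lay within the CD range. HFD fast library 2 also had the highest sum of 8 adipose markers, 109.7 CPM against 29.6 to 50.9 CPM in the other HFD fast livers, of which Cfd, adipsin, gave 70.1 CPM. The defining adipose genes Adipoq and Lep had 3 counts and 1 count there, and 45 and 36 counts in HFD fast library 1. Without HFD fast library 2 the value of Col3a1 was 1.70 (adjusted p = 0.118). The type VI collagens, which form beaded filaments, followed with 0.64 (SE 0.35) for Col6a1, 0.76 (SE 0.43) for Col6a2 and 1.23 (SE 0.46) for Col6a3. These shrank to 0.25 (SE 0.21), 0.27 (SE 0.25) and 0.69 (SE 0.30) without the libraries numbered 4, and none was called in either fit. Basement membrane collagens gave 0.30 (SE 0.24) for Col4a1, 0.13 (SE 0.17) for Col4a2 and -0.07 (SE 0.10) for Col18a1. Without the libraries numbered 4 they stood at 0.13 (SE 0.16), -0.02 (SE 0.13) and -0.05 (SE 0.11).

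Among glycoproteins and proteoglycans, Fbn1 went from 1.86 to 2.84 CPM in CD fast livers to 2.93, 3.74, 3.69 and 8.12 CPM in HFD fast livers (log2 1.001, SE 0.32, adjusted p = 0.0646). Lum was at 2.97, 3.35, 4.17 and 5.35 CPM and at 5.51, 5.73, 6.71 and 11.45 CPM (log2 0.89, SE 0.28, adjusted p = 0.0620). Bgn gave 0.60 (SE 0.21), Dcn 0.52 (SE 0.18), Sparc 0.43 (SE 0.20) and Fn1 0.06 (SE 0.09). Loxl2, a crosslinking enzyme of collagen IV, was at 1.22 to 1.72 CPM and at 1.82 to 4.54 CPM (log2 0.93, SE 0.29, adjusted p = 0.0579). None of the ligands and receptors was called, with 0.75 (SE 0.33) for Ccn2, 0.50 (SE 0.26) for Pdgfrb, the PDGF receptor of stellate cells, 0.31 (SE 0.18) for Tgfb1 and 0.24 (SE 0.14) for its receptor Tgfbr1. Lrat and Des were at 0.07 (SE 0.21) and 0.15 (SE 0.14), and Vim at 0.84 (SE 0.32). Several of these values rested on the libraries numbered 4. Without them Fbn1 stood at 0.58 (SE 0.19), Lum at 0.59 (SE 0.17), Loxl2 at 0.60 (SE 0.19), Vim at 0.40 (SE 0.18) and Sparc at 0.23 (SE 0.12), all still positive and uncalled. Lrat turned to -0.10 (SE 0.21) and Des stood at 0.01 (SE 0.13). With all libraries DESeq2 called 11 members in this comparison, the 5 of edgeR and, as higher, Col5a2, Lum, Dcn, Bgn, Fbn1 and Loxl2, where it called 13.1% of all genes. In the edgeR fit without HFD fed library 4 and HFD fast library 4, Pdgfrb fell to 0.23 (SE 0.19), Tgfb1 to 0.18 (SE 0.17) and Tgfbr1 to 0.06 (SE 0.10), while Ccn2 was at 0.79 (SE 0.36), Bgn at 0.42 (SE 0.15) and Dcn at 0.38 (SE 0.14). Ccn2 depended on another library, and was at 0.48 without HFD fast library 3.

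**Figure D5:**
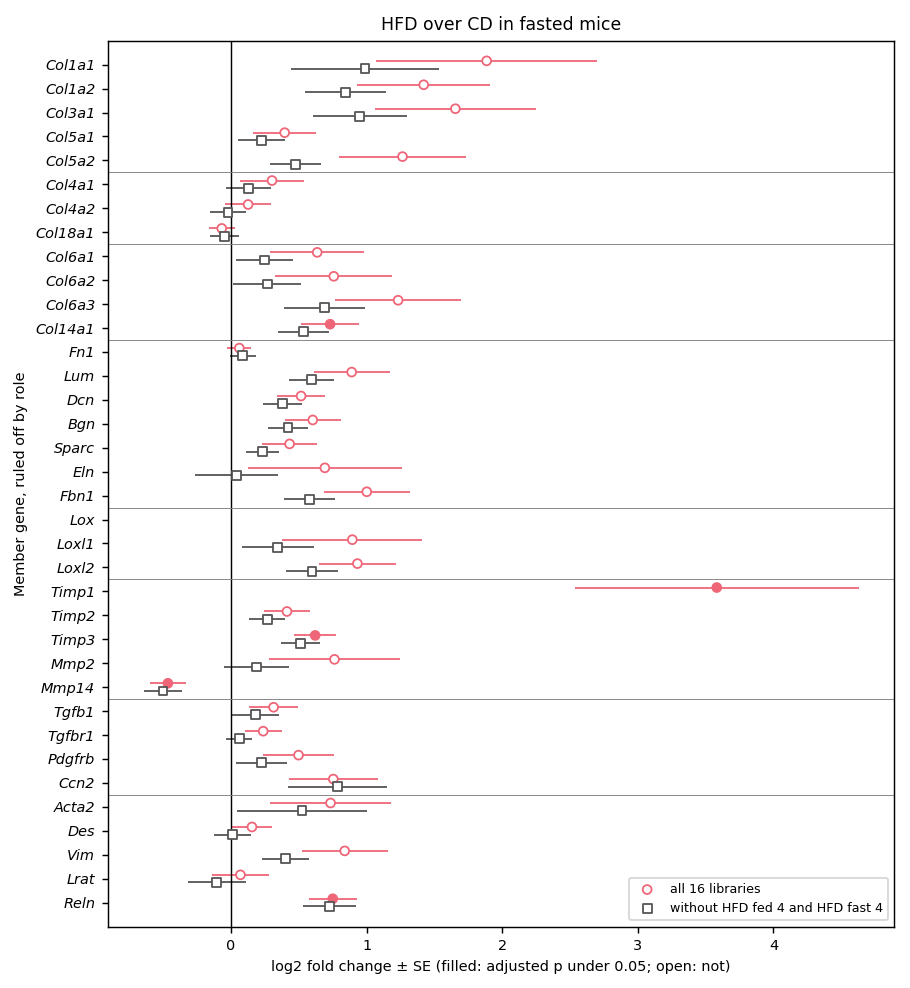
Log2 fold change of HFD over CD in fasted mice with its SE for each member, with all 16 libraries (circles) and without HFD fed 4 and HFD fast 4 (squares), filled for an adjusted p under 0.05. The collagen values move towards 0 without those libraries and those of Reln, Timp3, Ccn2 and Mmp14 move little; Timp1 and Lox have no square because they were not tested there, and Lox has no circle.

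The count of 5 did not hold when libraries were left out. It was 0 without HFD fast library 4, with a median of 0.34 and 31 positive members, and 12 without HFD fed library 4. Without both it was 0 of 34, where 4.27% of all genes were called, with a median of 0.31 and 30 positive. The share of all genes is not given for the fits without 1 library, so their counts are no result about the members. With all 16 libraries 7.70% of all genes were called in this contrast, and cell markers were read beside that share. A list with a share near it gives no result about that list. Of 15 sinusoidal endothelial markers 6 rose and 0 fell (sums 417 to 526 CPM and 526 to 664 CPM), of 15 Kupffer cell and macrophage markers 1 rose, Ccr2 (log2 2.25), with sums of 260 to 422 and 353 to 579 CPM, and 2 of 21 stellate markers outside the members rose, Steap4 (1.29) and Hand2 (0.56), with sums of 636 to 827 and 835 to 922 CPM (245.4 to 389.9 and 413.2 to 542.6 CPM without Tmem56). Of 7 cell cycle genes 1 rose, Top2a (1.79), with sums of 2.99 to 4.11 and 4.51 to 17.7 CPM. Hepatocyte markers gave 0 higher and 4 lower of 15, which were the enzyme genes Tat (-1.92), G6pc (-1.71), Pck1 (-1.49) and Hal (-0.73), and their sums of 108100 to 131600 and 89030 to 122600 CPM overlapped. Portal fibroblast and mesothelial markers gave 0 calls of 10, with sums of 6.10 to 8.14 and 7.20 to 13.3 CPM. Without the libraries numbered 4, Top2a stood at 1.02 (adjusted p = 0.0594), Hand2 at 0.48 (adjusted p = 0.0511) and G6pc at -1.51 (adjusted p = 0.0515), while Steap4 (1.19), Ccr2 (1.72), Tat (-1.89), Pck1 (-1.55) and Hal (-0.93) kept their calls. Their part in the members' difference was not tested.

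Averaged over feeding states, HFD raised 5 members and lowered none, where 12.0% of all genes were called (4.98% higher and 7.02% lower). These were Timp1 (log2 2.72, SE 0.73, adjusted p = 0.0253), Lum (0.77, SE 0.20, adjusted p = 0.0207), Ccn2 (0.75, SE 0.23, adjusted p = 0.0456), Reln (0.49, SE 0.12, adjusted p = 0.0210) and Timp3 (0.43, SE 0.11, adjusted p = 0.0184). Lum, Reln and Timp3 were called in all 16 leave-one-out fits. Ccn2 was not called in 11 of them, with an adjusted p of up to 0.0973 (without HFD fast library 3), and Timp1 was not called in 3, with up to 0.127 (without HFD fed library 4). Without both HFD libraries numbered 4, Lum alone of 34 tested members was called (0.44, SE 0.12, adjusted p = 0.0322), where 9.85% of all genes were, Timp1 was not tested, and Reln (0.45), Timp3 (0.33) and Ccn2 (0.72) stood at adjusted p of 0.0570, 0.0575 and 0.0929. No collagen chain was called. Their values ran from 1.43 (SE 0.57) for Col1a1 to -0.19 (SE 0.07) for Col18a1, and Col4a2 was at -0.03 (SE 0.12). The value of Col1a1 was 0.71 without HFD fed library 4 and 0.27 (SE 0.39) without both. Cell markers were read in this average too, beside the 12.0% of all genes called, and a list near that share gives no result about it. Higher were 3 of 15 Kupffer cell and macrophage markers, 3 of 21 stellate markers outside the members and 2 of 15 sinusoidal endothelial markers, and 0 of these lists were lower. Of 15 hepatocyte markers 4 were lower and 0 higher. The part of these markers in the members' difference was not tested.

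The rest of the matrix machinery was followed in lists around the members. In CD livers, where the fast called 25.2% of all genes, it lowered 6 of 24 tested collagen processing enzymes and raised 4. Serpinh1, the collagen chaperone HSP47, fell from 14.7 ± 2.55 to 6.06 ± 1.15 CPM (SD, n = 4; log2 -1.28, SE 0.28, adjusted p = 0.004287 by edgeR), Ppib, a proline isomerase that acts on procollagen, fell (log2 -0.83), P3h2, a prolyl hydroxylase, fell (-0.60), and Colgalt1, a collagen galactosyltransferase, rose (0.60). Of 18 tested proteases and inhibitors outside the members, 5 fell and 0 rose, with Reck, a membrane inhibitor of metalloproteinases, at -1.51 and Adamts9 at -1.24. Of 16 laminins and other basement membrane genes 5 fell and 3 rose. Lamb3, a laminin beta chain, rose from 5.72 ± 1.17 to 121.6 ± 61.04 CPM (SD, n = 4; log2 4.41, SE 0.49) and Lamc3, a laminin gamma chain, rose as well (1.05), while Nid2 (nidogen) was at -1.59 and Lama3 at -1.01. Of 21 TGF-beta genes 4 fell and 0 rose, led by Smad7, the inhibitory SMAD, at -1.24, where 11.5% of all genes fell and 13.7% rose. In HFD livers, where 8.86% of all genes were called, the fast raised 3 and lowered 2 of the 24 collagen processing enzymes, with Ppib again lower (-0.45), and Lamb3 rose there too (2.997).

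Between the diets in fed mice, 4 of the 21 TGF-beta genes were lower in HFD livers and 0 higher (7.50% of all genes were called). They were the SMAD target genes Id1 (log2 -1.51, SE 0.35), Id2 (-0.98, SE 0.27) and Id3 (-1.20, SE 0.28) and Smad7 (-1.48, SE 0.25). In CPM, Smad7 stood at 25.5 ± 3.66 (SD, n = 4) with CD and 9.11 ± 2.29 with HFD in fed mice, and at 10.8 ± 4.57 and 7.30 ± 0.854 after the fast. Reck was lower as well (-1.47, SE 0.20). These 5 calls held without the libraries numbered 4. In fasted mice, where 7.70% of all genes were called, 2 of 25 tested glycoproteins and proteoglycans outside the members were higher in HFD livers and 0 lower, Vcan, versican (2.14, SE 0.54), and Tnc, tenascin C (1.36, SE 0.37). Without the libraries numbered 4 they stood at 1.68 (adjusted p = 0.0785) and 0.78 (adjusted p = 0.102), no longer called. Of 17 growth signals of stellate cells 2 were higher, Ddr2, a collagen receptor (0.74), and Wwtr1, the TAZ coactivator (0.48), and 1 was lower, Lepr (-2.56). In the smaller fit Wwtr1 (0.48) and Lepr (-2.68) kept their calls and Ddr2 (0.55, adjusted p = 0.0590) did not. Of 12 tested retinoid genes 0 were higher and 1 was lower, Rbp4 (-0.41), the carrier of retinol in plasma, which stood at -0.35 (adjusted p = 0.0887) in that fit.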

How the data were processed

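Per the study's methods, the authors selected poly(A) RNA of RIN above 8, sequenced it in pairs, aligned it with TopHat2 2.0.11 to GRCm38 as a first-strand library, with annotation from Illumina iGenomes, and counted reads per gene with featureCounts. CASAVA 1.8.4 is named in the submitters' processing notes. The strand option of the counting and the annotation release are not given in the sources used here. The deposited values are whole-number counts per gene, not normalized, in 16 libraries. From these counts, edgeR 4.0.16 (R 4.3.3) was run with filterByExpr, TMM scaling, 1 coefficient per group (12 residual degrees of freedom) and the quasi-likelihood test, with adjustment over 15075 genes and a threshold of 0.05. The common coefficient of variation was 19.2%. Alternatives were DESeq2 1.42.0, limma-voom (limma 3.58.1), other scalings and filters, a replicate block and leaving out each library. The fits were tested on simulated data. Exon lengths and positions are from GENCODE on GRCm38. Named were all members and, per list and contrast, at most 4 called genes by size of change, and the marker with the highest level of the main cell type lists. Members and lists were chosen with earlier results of these data known. With 41364448 to 57583153 counts per library, 3 counts correspond to 0.0536 to 0.0767 CPM.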

Additional observations from a re-analysis of the deposited data

Results flagged for a closer look

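Over 36 members in 4 groups, 144 sets of 4 libraries were screened for a library whose gap to the nearest other was past Dixon's 95% critical value for 4 libraries, and 27 were, where chance gives about 1 in 20. HFD fed library 4 was the high library in 18 of them. Its levels were 21.05 CPM for Col1a1, 27.05 for Col1a2, 70.38 for Col3a1, 7.719 for Col5a2, 17.81 for Col6a1, 10.52 for Col6a2 and 24.56 for Col6a3. For glycoproteins and proteoglycans they were 10.48 CPM for Lum, 174.2 for Dcn, 150.6 for Bgn, 68.49 for Sparc and 7.167 for Eln. The others were 3.297 CPM for Loxl1, 0.7897 for Timp1, 14.81 for Timp2, 5.804 for Mmp2, 12.42 for Pdgfrb and 29.32 for Vim. HFD fast library 4 was the high library in 4, with 9.932 CPM for Col5a2, 8.116 for Fbn1, 36.2 for Tgfbr1 and 33.79 for Vim.

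In CD livers 5 sets were past the value. CD fast library 2 was high for Col4a2 at 23.07 CPM, and CD fast library 4 was high for Col6a3 at 9.203 CPM. CD fed library 3 was low for Eln at 1.401 CPM and high for Tgfbr1 at 25.75 CPM and Lrat at 19.92 CPM. Members share libraries, so these are not independent sets.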

How the results depend on the processing

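Of 245 member values tested, 62 had an unadjusted p under 0.05, and none of these changed sign under any setting tried. Over their alternatives, 1358 kept their direction and side of the threshold, 75 passed it newly and 141 no longer passed it. Of the other 183 values, 96 changed sign under at least 1 setting, and none was called there. Of these, 18 did so in a setting other than the fits that left out 1 library or both HFD libraries numbered 4. Such settings include the fit on only the 2 groups compared. Without both HFD libraries numbered 4, 37 changed sign, 17 of them for HFD in fed mice. Counts of members called that moved by over 1.5 times are given here, and the cause was not tested. At an adjusted p under 0.01 the calls were 1 for fasting in CD livers, 0 for HFD in fasted mice, 1 for the mean fasting effect and 0 for the mean HFD effect. DESeq2 called 1 for fasting in HFD livers, 2 for HFD in fed mice, 11 for HFD in fasted mice, 1 for the interaction and 10 for the mean HFD effect. With limma-voom these were 1 for fasting in HFD livers, 3 for HFD in fasted mice and 3 for the mean HFD effect. Total count scaling gave 1, 11 and 13 for the same comparisons. Of all genes it called 8.78%, 13.9% and 20.5%, against 8.86%, 7.70% and 12.0% in the main fit. This scaling shifted the median of all genes by 0.159 for HFD in fasted mice and 0.115 for the mean HFD effect. Among the called genes, the share that was higher went from 39.6% to 88.1% and from 41.5% to 84.7%. Upper quartile scaling gave 1 for fasting in HFD livers and 3 for HFD in fasted mice. A mean of at least 100 counts gave 1 for fasting in HFD livers, 1 for HFD in fed mice and 3 for HFD in fasted mice, no filter gave 3 for HFD in fasted mice, and a fit on only the 2 groups compared gave 0 there. Apart from total count scaling, the share of all genes called is not given here for the settings up to this point. Their counts are therefore no result about the members. Without both HFD libraries numbered 4 the counts were 12 for fasting in CD livers, 0 for HFD in fasted mice and 1 for the mean HFD effect. In that fit 27.3%, 4.27% and 9.85% of all genes were called, in the same order.

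Leaving out 1 library gave 1 to 6 calls for fasting in CD livers, 0 to 1 for fasting in HFD livers, 0 to 1 for HFD in fed mice, 0 to 12 for HFD in fasted mice, 0 to 1 for the interaction, 2 to 6 for the mean fasting effect and 3 to 8 for the mean HFD effect. For HFD in fasted mice the count was 0 without HFD fast 4, 1 without CD fast 1, CD fast 2 or HFD fast 3, 2 without CD fed 2, CD fed 4, HFD fed 3 or HFD fast 2, 3 without CD fed 3, CD fast 3 or HFD fed 1, 8 without HFD fast 1 and 12 without HFD fed 4. The mean fasting count was 2 without CD fed 1, HFD fed 4 or HFD fast 1, 2 or 3, and 3 without CD fast 1 or 2. The mean HFD count was 3 without CD fed 2, HFD fed 4 or HFD fast 4 and 8 without HFD fast 1. The share of all genes called in these fits is not given, so the counts are no result about the members.

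Correlations did not show that replicate numbers pair the samples over the series. Of 24 same-numbered pairs 8 correlated over 0.1, and 5 of 16 libraries matched their own number best. HFD fed 4 with HFD fast 4 was the highest of these pairs, at r = 0.662, and the labels do not say whether same-numbered libraries share a batch or litter. With the replicate block the counts were 6 for fasting in CD livers, 1 for HFD in fed mice, 9 for HFD in fasted mice, 6 for the mean fasting effect and 8 for the mean HFD effect. In the same order, 26.2%, 8.01%, 8.56%, 29.7% and 13% of all genes were called with the block. Timp1 and Lox are limited by depth. Under total count scaling the levels of Col18a1 in CD fast livers (969.5 CPM), Fn1 in HFD fast livers (1866 CPM) and Mmp14 in HFD fast livers (36.78 CPM) moved by more than 1 SD.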
